A study of Mus musculus with 12 samples.

Results

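The response of whole lung to the treatment labelled CRE was measured by RNA sequencing in mice carrying Cc10-Cre and floxed Rhoa alleles (Cc10-Cre;Rhoa fl/fl). The comparison rests on 6 of the 12 libraries of the series, 3 from CRE-treated and 3 from PBS-treated Cc10-Cre;Rhoa fl/fl mice, and takes in all 17473 genes tested, of 54532 in the count table. The other 6 libraries came from Cc10-Cre mice without the floxed alleles, 3 given PBS and 3 given CRE, so that every mouse of the series carried the Cre transgene. The labels do not spell out CRE, which is kept here as the name of the treatment and is not the recombinase, and they state no dose, time course, age or sex. Because the Cc10 promoter drives the recombinase in Cc10-expressing airway cells, mainly club cells, and RNA was taken from whole lung, the RNA also came from all the cells in which Rhoa was not targeted. The labels number the libraries of each group 1 to 3 without saying what sets them apart, so the p-values below measure the spread between these libraries, which may in part be technical.

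Club cells are secretory cells of the conducting airway that make secretoglobins and drug-metabolising enzymes, and they can take on a mucus-secreting state. Type 2 airway inflammation runs from epithelial alarmins such as IL-33, through the cytokines IL-4, IL-5 and IL-13, to chemokines that draw eosinophils and monocytes, to alternative activation of macrophages and to mucus production. RhoA is a small GTPase that acts on the actin cytoskeleton through the ROCK kinases and the formins.

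Total counts ranged from 16250674 to 21559210 over the 6 libraries, and no pair of libraries agreed within sampling noise. On the first principal component of all 12 libraries, which held 64.4% of the variance, the PBS libraries of Cc10-Cre;Rhoa fl/fl mice lay at -60.2, -47.3 and -66.5 and the CRE libraries at 10.1, 82.6 and 31.2 (replicates 1, 2 and 3, the order used for all values below). CRE replicate 2 thus lay among the CRE libraries of Cc10-Cre mice, at 71.6 to 84.7, and the other CRE libraries between them and the PBS libraries. By Y-linked counts, PBS replicate 2 and CRE replicates 2 and 3 were female and the other libraries of these 2 groups male. In Cc10-Cre mice all 3 PBS libraries were male and 2 of the 3 CRE libraries female, so that sex was unevenly spread over the treatments in both genotypes. Sftpc, the surfactant protein that defines type 2 alveolar cells, stood at 14678 to 16303 CPM (read counts scaled to library size, with TMM factors) in the PBS libraries and at 9230 to 12137 CPM in the CRE libraries, so lung epithelium was present in all 6, and markers of skeletal muscle, fat and thymus summed to 6.53 to 9.98 CPM. Rhoa itself was at 469, 398 and 481 CPM with PBS and at 465, 544 and 495 CPM with CRE, with overlapping groups (log2 change 0.16 ± 0.10, standard error, adjusted p = 0.21). Its locus overlaps Tcta and a predicted gene, and a level over whole lung does not report on the club cells alone.

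CRE changed a large share of the lung transcriptome in Cc10-Cre;Rhoa fl/fl mice. At an adjusted p below 0.05 (edgeR quasi-likelihood test, Benjamini-Hochberg over all tested genes, 3 libraries a group throughout), 6830 of 17473 genes were called, which is 39.1%. Of these, 3595 rose (20.6% of tested genes) and 3235 fell (18.5%), and 2105 changed at least 2-fold, 1441 upward and 664 downward. The median log2 change over all tested genes was 0.00. Every CRE library lay above every PBS library for 4243 genes (24.3%) and below every PBS library for 4324 genes (24.7%). In the main fit the spread was estimated over all 12 libraries. With only the 6 libraries of these mice in the fit, 3812 genes were called. Among genes described below, Ccl17, Cldn4, Fmo2, Ifngr1, Nupr1 and Sftpa1 lost their calls in that fit, though not when any single library was left out.

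**Figure D1:**
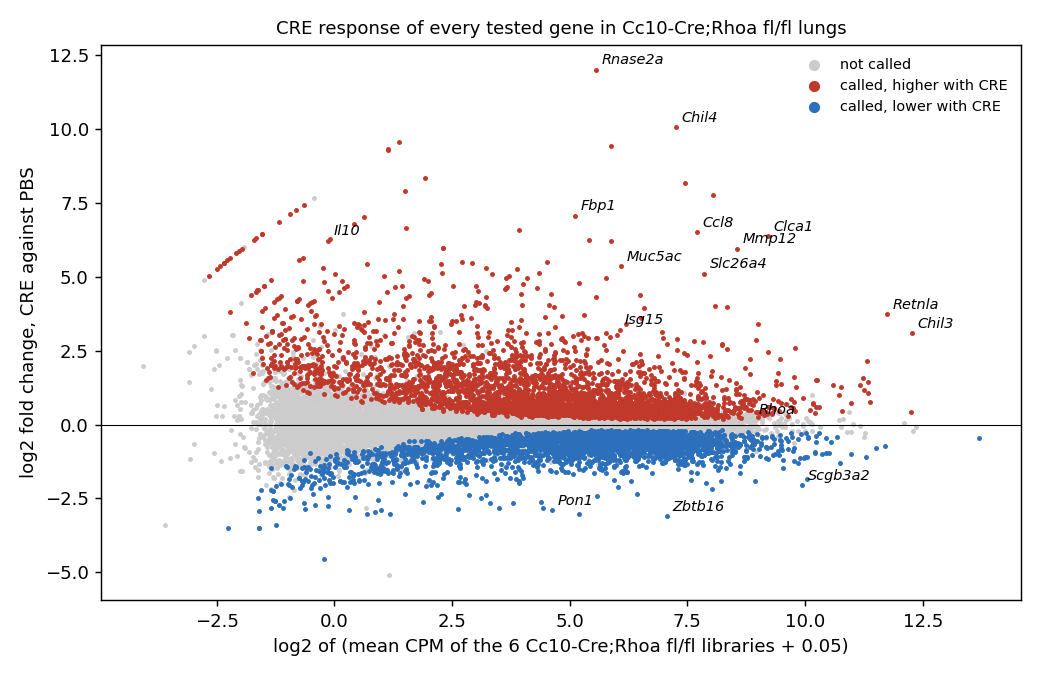
Each point is 1 of the tested genes in Cc10-Cre;Rhoa fl/fl lungs, with its mean level over the 6 libraries on the horizontal axis, as log2 of CPM plus 0.05, and its log2 fold change with CRE on the vertical axis; red marks the 3595 genes that rose, blue the 3235 that fell and grey those not called. The fitted values at the top left, along straight lines, belong to genes with 0 or 1 count in the PBS libraries and depend on the prior count.

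The 20 largest rises among named genes without overlap included Rnase2a, Chil4, Ccl24, Arg1, Fbp1, Ccl8, Clca1 and Col6a5. Rnase2a, a ribonuclease of the eosinophil-associated family, had 1 count over the 3 PBS libraries (0, 0.0462 and 0 CPM) and stood at 90.7, 114 and 79.3 CPM with CRE, a ratio of 5854 with a 95% counting interval of 1050 to 2.31e+05. Chil4, a chitinase-like protein, went from 0.155, 0.647 and 0 CPM to 250, 375 and 286 CPM (log2 change 10.08 ± 0.65, adjusted p = 3.34e-06). Fbp1, fructose-bisphosphatase, went from 0.62, 0.323 and 0.577 CPM to 83.1, 37.6 and 85.6 CPM (7.08 ± 0.39, adjusted p = 1.24e-06). Neither gene overlapped between the groups, as the choice of the largest rises required. Col6a5, a collagen VI chain, rose from 1.30 to 1.96 CPM to 93.0 to 151 CPM (6.22 ± 0.26, adjusted p = 1.32e-07), with the 3 CRE libraries close together. For some others CRE replicate 2 stood far above the other CRE libraries. Arg1, which splits arginine and marks alternatively activated macrophages, was at 3.46, 2.73 and 1.01 CPM with PBS and at 140, 1185 and 240 CPM with CRE (7.77 ± 0.83, adjusted p = 0.000105), and its log2 change was 6.32 without that library. Mmp13, a collagenase, was at 5.65, 235 and 11.2 CPM with CRE against 0.625 to 1.65 CPM with PBS, and its log2 change was 2.93 without CRE replicate 2 in place of 6.24. Ocstamp, a protein of fusing osteoclasts, was at 4.99, 71.1 and 13.6 CPM against 0.155 to 0.528 CPM (6.58 ± 1.00, adjusted p = 0.000655). For genes with no count in any PBS library, only a bound can be given against a floor of 3 counts per library: Cbln1, a secreted synaptic organiser, was at least 34.9-fold higher (2.70, 4.32 and 8.23 CPM with CRE), the homeobox gene Msx3 at least 29.5-fold and Sprr2a3, a cornified-envelope protein with near-identical copies, at least 29.4-fold.

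The largest falls were smaller than the largest rises. Zbtb16, a transcription factor of innate-like lymphocytes, fell from 173, 202 and 342 CPM to 28.8, 6.60 and 47.4 CPM (log2 change -3.11 ± 0.64, adjusted p = 0.0033). Pdk4, the kinase that shuts off pyruvate dehydrogenase, fell from 24.3, 45.9 and 42.5 CPM to 4.69, 4.38 and 6.94 CPM (-2.81 ± 0.33, adjusted p = 0.000174). In both, every CRE library lay below every PBS library, as the choice of the largest falls required. The amino acid transporter Slc38a4 fell by 2.67 on the log2 scale (SE 0.27, adjusted p = 7.95e-05) and the carboxylesterase Ces1g fell by 2.67 (SE 0.34, adjusted p = 0.000254). Hspa1a, an inducible heat shock protein whose reads cannot be told from those of Hspa1b, was also among the largest falls, but PBS replicate 2 alone was high, at 167 CPM against 10.7 and 17.7 CPM in the other PBS libraries. Without that library its log2 change was -0.84 (adjusted p = 0.0737).

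Levels of gene groups in a whole lung do not separate fewer cells of a type from less RNA per cell. With that limit, the groups moved as follows, each count being read against the 20.6% of all tested genes that rose and the 18.5% that fell. The lists and their members were chosen with earlier results of these data known. The list members Il5, Ccl1, Ern2, Ighe and Mcpt2 had 0 to 3 counts over the PBS libraries. They passed the low-count filter through other libraries, so in these counts they could in practice only rise. Other members near 0 counts with PBS, among them Il13, Il13ra2, Itln1, Ccl24 and Cd209e, had little room to fall. These too are counted among the members that rose.

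**Figure D2:**
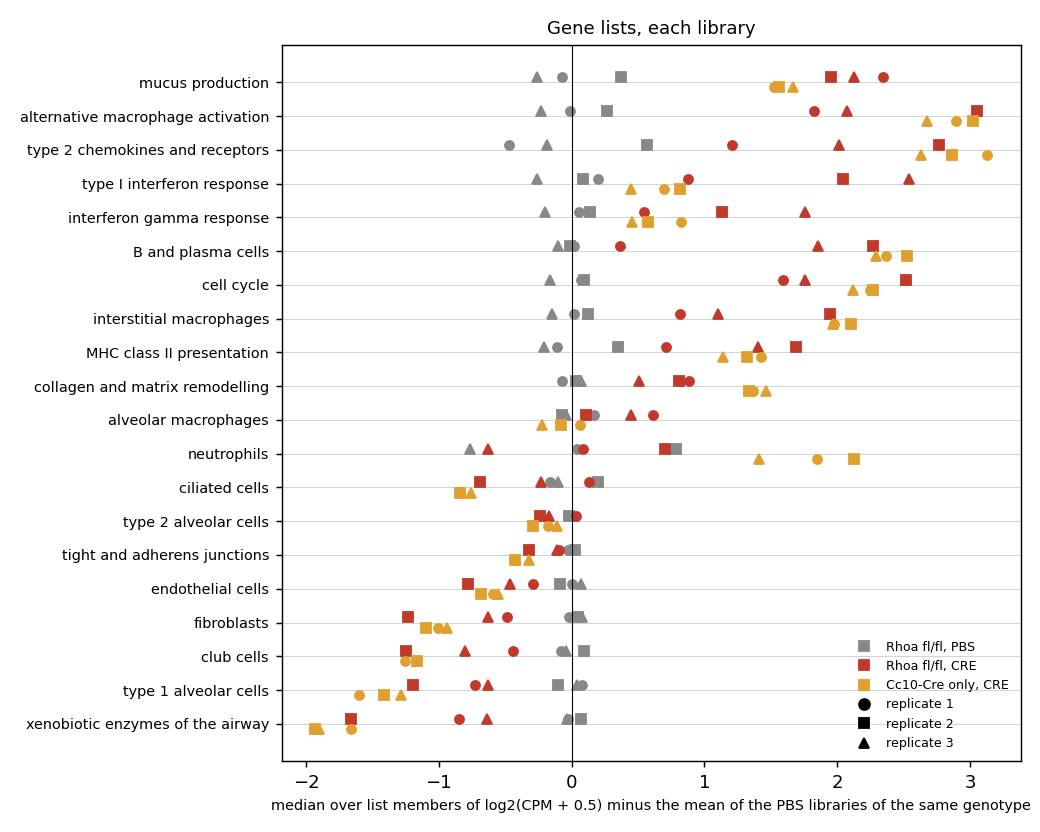
Each point is 1 library and gives the median over the members of a gene list of log2(CPM + 0.5), minus the mean of the PBS libraries of the same genotype; grey marks PBS and red CRE libraries of Cc10-Cre;Rhoa fl/fl mice, and orange CRE libraries of Cc10-Cre mice. For mucus production the 3 red points lie at 1.95 to 2.35, and for B and plasma cells they spread from 0.36 to 2.27.

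At the start of the type 2 axis, the alarmin Il33 rose while Tslp did not pass the test. Il33 went from 159, 253 and 196 CPM to 583, 606 and 429 CPM (log2 change 1.41 ± 0.18, adjusted p = 0.00022), with no overlap. Tslp was at 1.55, 2.68 and 2.40 CPM with PBS and at 1.62, 3.04 and 1.999 CPM with CRE (0.00 ± 0.34, adjusted p = 0.994). Il1rl1, the IL-33 receptor, rose from 5.48 to 10.4 CPM to 13.3 to 19.3 CPM (1.11 ± 0.26, adjusted p = 0.00588), and Crlf2, a chain of the TSLP receptor, from 25.6 to 31.1 CPM to 43.2 to 77.4 CPM (1.03 ± 0.17, adjusted p = 0.00111). These were the 3 of 7 tested alarmin genes that rose, none fell, and the median log2 change of the list was 0.40.

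Of the cytokines and receptors of type 2 immunity, 10 of 15 tested genes rose and none fell (median log2 change 0.84). Il13, the cytokine that drives goblet cells, was at 0, 0.185 and 0 CPM with PBS and at 2.76, 4.27 and 2.18 CPM with CRE (5.43 ± 0.62, adjusted p = 0.000145), and its fitted log2 change was 8.81 without PBS replicate 2, which held its only PBS counts. Il5, the eosinophil growth factor, rested on 3 counts with PBS and 27 with CRE, a ratio of 10.96 with a 95% counting interval of 3.37 to 56.4, and its reads cannot be told from those of the overlapping Gm12214. The call of Il5 was lost in the limma-voom fit, which was run with quality weights for libraries. Il4 overlapped between the groups, at 1.15 to 2.31 CPM with PBS and 1.41 to 2.28 CPM with CRE (0.17 ± 0.34, adjusted p = 0.721). IL-4 is the cytokine that switches B cells to IgE. Il13ra2, the decoy receptor of IL-13, rose from 0.0517, 0.277 and 0 CPM to 2.22, 6.90 and 2.65 CPM (5.04 ± 0.75, adjusted p = 0.000565). Socs1, an inhibitor of cytokine signalling, rose from 3.89 to 5.40 CPM to 18.6 to 37.3 CPM (2.61 ± 0.31, adjusted p = 0.000174). Il5ra, the IL-5 receptor chain of eosinophils, overlapped between the groups (1.28 ± 0.50, adjusted p = 0.0589).

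The chemokines that draw eosinophils and type 2 lymphocytes had the highest median log2 change of the 43 lists, 3.14, and 8 of 10 tested genes rose while none fell (1 without CRE replicate 1). Ccl8, a CCR8 ligand, went from 2.33, 8.96 and 2.21 CPM to 231, 638 and 377 CPM (6.51 ± 0.56, adjusted p = 3.03e-05). Ccl24, an eotaxin, went from 0.207, 0.185 and 0.0961 CPM to 67.8, 217 and 66.4 CPM (9.44 ± 0.69, adjusted p = 8.4e-06), and Ccl11, also an eotaxin, from 3.70 to 6.10 CPM to 79.8 to 105 CPM (4.31 ± 0.23, adjusted p = 8.17e-07). For all 3 the groups were far apart. The receptor of the eotaxins on eosinophils, Ccr3, rose from 0.31, 0.60 and 1.01 CPM to 5.47, 8.88 and 7.64 CPM (3.50 ± 0.46, adjusted p = 0.00027). Ccl17, a CCR4 ligand, rose less (1.69 ± 0.43, adjusted p = 0.00966). Ccl22, the other CCR4 ligand, was at 22.6, 136 and 23.3 CPM with CRE against 5.94, 24.5 and 10.1 CPM with PBS (2.16 ± 0.67, adjusted p = 0.0235), and the groups overlapped. Its call was lost without PBS replicate 1, PBS replicate 3 or CRE replicate 2, with adjusted p up to 0.211. Ccl1 rose from 1 count over the PBS libraries to 55 with CRE, a ratio of 67.0 with a 95% counting interval of 11.5 to 2692.

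Mucus genes rose evenly over the 3 CRE libraries. Of 19 tested members, 17 rose and none fell, with a median log2 change of 2.56. Muc5ac, the gel-forming mucin of goblet cells, went from 3.36, 5.17 and 1.20 CPM to 143, 103 and 156 CPM (5.36 ± 0.38, adjusted p = 7.47e-06). Slc26a4, the anion exchanger pendrin, went from 12.1, 16.7 and 10.4 CPM to 438, 569 and 343 CPM (5.10 ± 0.29, adjusted p = 1.24e-06). Neither gene overlapped between the groups. Itln1, an intelectin of goblet cells, went from 0.31, 0 and 0.144 CPM to 9.13, 10.3 and 9.52 CPM (5.98 ± 0.47, adjusted p = 1.51e-05). Clca1, a secreted goblet cell protein, was at 1126, 956 and 1427 CPM with CRE, and PBS replicate 2, at 39.4 CPM, stood apart from the other PBS libraries at 1.40 and 1.15 CPM. Its log2 change was 6.38 ± 1.21 (adjusted p = 0.00217) with that library and 9.84 without it. The same PBS library held the most Muc5b, the mucin of the resting airway, which went from 23.3, 83.3 and 29.9 CPM to 206, 152 and 171 CPM (1.95 ± 0.36, adjusted p = 0.00188). Spdef, the transcription factor of goblet cells, rose least of those named (0.90 ± 0.26, adjusted p = 0.0176), from 1.34 to 2.36 CPM to 2.82 to 3.73 CPM, and its call was lost without PBS replicate 1, PBS replicate 3 or CRE replicate 1 (adjusted p up to 0.0716).

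Most markers of club cells fell. Of 20 tested club cell markers, 11 fell and 2 rose (4 without PBS replicate 2), with a median log2 change of -0.83, and the summed level of the list went from 7797 to 8791 CPM to 2526 to 4394 CPM. Scgb3a2, a secretoglobin, went from 1102, 1806 and 1857 CPM to 565, 228 and 348 CPM (-2.06 ± 0.28, adjusted p = 0.000353). Pon1, a lactonase, fell from 46.3, 47.7 and 36.6 CPM to 7.45, 3.21 and 6.76 CPM (-2.91 ± 0.24, adjusted p = 1.91e-05). For both, every CRE library lay below every PBS library. Scgb1a1, which encodes Cc10 and whose promoter drives the recombinase, was at 38.2, 24.3 and 46.7 CPM with PBS and at 20.2, 5.90 and 10.9 CPM with CRE (-1.56 ± 0.35, adjusted p = 0.00532). The 2 members that rose were Reg3g, an antibacterial lectin, from 6.56, 24.7 and 4.61 CPM to 45.4, 89.8 and 77.5 CPM (2.56 ± 0.50, adjusted p = 0.00241), and Nupr1, a stress-response protein (0.41 ± 0.11, adjusted p = 0.0116). Without PBS replicate 2, 4 members rose.

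The enzymes with which the airway handles foreign compounds fell with the club cell markers, 3 of which they share. Of 16 tested genes, 12 fell and 2 rose (median log2 change -1.14). Cyp2f2, the cytochrome of club cells, went from 790, 807 and 725 CPM to 264, 105 and 242 CPM (-1.93 ± 0.25, adjusted p = 0.000284), and its locus overlaps a predicted gene. Fmo2, a flavin monooxygenase, went from 1093, 960 and 1234 CPM to 530, 133 and 515 CPM (-1.48 ± 0.38, adjusted p = 0.00956). CRE replicate 2 was the lowest library for both genes. The call of Fmo2 was lost with only the 6 libraries of these mice in the fit. Cyp2b10 fell from 199 to 258 CPM to 69.8 to 141 CPM (-1.15 ± 0.21, adjusted p = 0.00202). The 2 that rose, Cyp1b1 and Gsto1, did so by less (0.65 ± 0.18 and 0.40 ± 0.12), and the calls were lost without PBS replicate 1 (both), CRE replicate 2 (Cyp1b1) or PBS replicate 3 (Gsto1), with adjusted p of 0.0592 to 0.0856.

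Markers of ciliated cells, the other main cell type of the conducting airway, mostly did not pass the test. Of 20 tested, 2 fell and none rose (median log2 change -0.25). In Cc10-Cre lungs 18 fell, where 28.4% of all tested genes fell, but the edgeR test of the difference between genotypes called 0 of the 20. Foxj1, the transcription factor of ciliogenesis, was at 61.5, 131 and 69.7 CPM with PBS and at 89.9, 57.1 and 76.8 CPM with CRE (-0.23 ± 0.25, adjusted p = 0.489). Dnah5, a dynein of the ciliary axoneme, was at 31.2, 55.6 and 39.0 CPM with PBS and at 52.0, 15.2 and 34.6 CPM with CRE (-0.31 ± 0.33, adjusted p = 0.491). In both, CRE replicate 1 lay above the PBS median and CRE replicate 2 below every PBS library. Tppp3, a microtubule protein, fell in every CRE library (-0.77 ± 0.19, adjusted p = 0.00919). Without CRE replicate 1, 8 of the 20 fell, and without PBS replicate 2 or 3 or CRE replicate 2 or 3, 1 did. Leaving out any Cc10-Cre library also left 1.

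**Figure D3:**
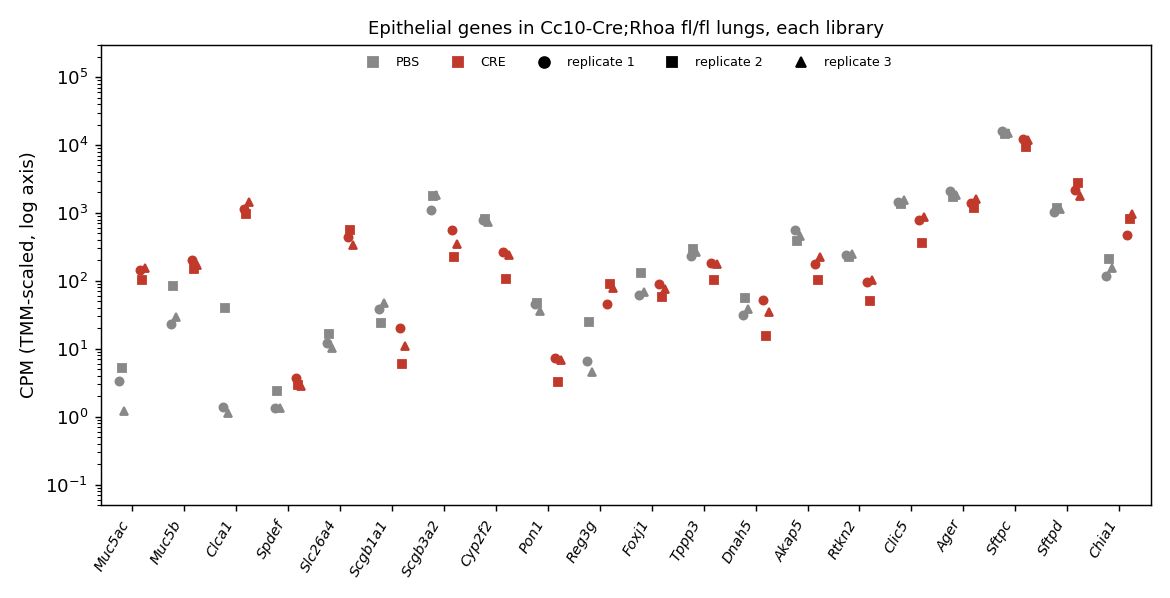
Each point is 1 library of Cc10-Cre;Rhoa fl/fl mice, grey for PBS and red for CRE, with CPM on a log axis, for genes of mucus production, club cells, ciliated cells and type 1 and type 2 alveolar cells from left to right. The red points of Slc26a4 lie at 343 to 569 CPM above the grey ones at 10.4 to 16.7 CPM, those of Pon1 lie below, and those of Foxj1 and Dnah5 overlap the grey ones.

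In the alveoli, type 1 cell markers fell together and type 2 cell markers went both ways. Of 16 tested type 1 markers, 13 fell and 1 rose (0 without PBS replicate 2 or 3 or CRE replicate 2), the median log2 change was -0.85, and the summed level went from 9908 to 11611 CPM to 4923 to 7391 CPM. Akap5, a kinase anchoring protein, fell from 556, 385 and 459 CPM to 177, 103 and 228 CPM (-1.46 ± 0.25, adjusted p = 0.00122), and Clic5, a chloride channel protein, from 1443, 1354 and 1540 CPM to 798, 367 and 857 CPM (-1.10 ± 0.25, adjusted p = 0.00502). Both were lowest in CRE replicate 2. Rtkn2, an effector of RhoA whose locus overlaps a predicted gene, fell from 223 to 246 CPM to 49.8 to 101 CPM (-1.51 ± 0.23, adjusted p = 0.000651). Ager, the receptor that defines type 1 cells, fell by less (-0.42 ± 0.13, adjusted p = 0.0242), and that call was lost without PBS replicate 1, PBS replicate 3 or CRE replicate 2 (adjusted p up to 0.0954). Of 18 tested type 2 markers, 3 rose and 4 fell (median -0.08), shares near the 20.6% and 18.5% of all tested genes. The 4 that fell became 8 without CRE replicate 1 and 2 without PBS replicate 1 or 3. The collectins rose, Sftpd from 1024, 1193 and 1156 CPM to 2188, 2796 and 1756 CPM (1.00 ± 0.16, adjusted p = 0.000967) and Sftpa1 from 3944 to 4429 CPM to 5251 to 5852 CPM (0.42 ± 0.11, adjusted p = 0.0108). Sftpb, a hydrophobic surfactant protein, fell from 4130 to 4246 CPM to 2201 to 2706 CPM (-0.73 ± 0.11, adjusted p = 0.000627), as did Lpcat1, an enzyme of surfactant lipid synthesis (-0.45 ± 0.08, adjusted p = 0.00167). Chia1, the acidic chitinase, rose most of the list, from 119, 210 and 156 CPM to 476, 826 and 956 CPM (2.22 ± 0.25, adjusted p = 0.000141).

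Genes of transitional and basal epithelium rose in 7 of 11 tested cases with none falling (median log2 change 0.74), and 4 rose without PBS replicate 1 or 3 and 1 fell without PBS replicate 1 or CRE replicate 2. Cldn4, a claudin of injured alveolar epithelium, was at 4.496, 5.45 and 3.65 CPM with PBS and at 8.89, 50.4 and 8.47 CPM with CRE (2.31 ± 0.57, adjusted p = 0.00787), and without CRE replicate 2 its log2 change was 0.94. Lgals3, galectin-3, which macrophages also make, was at 98.6 to 126 CPM with PBS and at 202, 737 and 280 CPM with CRE (1.80 ± 0.36, adjusted p = 0.00302), and its log2 change was 1.05 without the same library. CRE replicate 2 held the highest level of both. Krt19 overlapped between the groups (0.07 ± 0.12, adjusted p = 0.655). Over the 28 tested genes of tight and adherens junctions, 3 rose and 6 fell (median -0.16). Cldn18, the claudin of alveolar epithelium, fell from 893, 807 and 854 CPM to 550, 531 and 668 CPM (-0.55 ± 0.12, adjusted p = 0.00389). Tjp3, whose locus overlaps Apba3, rose from 24.4 to 31.2 CPM to 47.3 to 66.3 CPM (1.03 ± 0.14, adjusted p = 0.000309). Cdh1, E-cadherin, did not pass the test (0.14 ± 0.09, adjusted p = 0.243).

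Monocyte chemokines and macrophage genes rose. Of 10 tested genes of monocyte recruitment and the CSF1 axis, 9 rose and 1 fell (median log2 change 1.39). Ccl2, the main CCR2 ligand, went from 0.878, 1.76 and 0.24 CPM to 13.8, 44.9 and 12.9 CPM (4.62 ± 0.59, adjusted p = 0.00026), and its receptor Ccr2 from 54.4, 49.0 and 44.0 CPM to 157, 239 and 167 CPM (1.93 ± 0.19, adjusted p = 6.39e-05). Both were highest in CRE replicate 2, with no overlap with PBS. The 1 that fell was Cx3cl1, fractalkine (-0.44 ± 0.15, adjusted p = 0.036), with overlapping groups, and its call was lost without any PBS or CRE library of these mice other than PBS replicate 2 and CRE replicate 3, and without 4 of the Cc10-Cre libraries (adjusted p up to 0.161). Of 20 tested interstitial macrophage markers, 16 rose and 3 fell (1 without PBS replicate 3; median 1.45), and the summed level went from 2856 to 2923 CPM to 3791 to 6389 CPM. Trem2, a lipid-sensing receptor, went from 8.73, 8.68 and 4.76 CPM to 30.04, 106 and 41.1 CPM (3.00 ± 0.41, adjusted p = 0.00037), and C1qc, a chain of complement C1q, from 35.1, 46.5 and 28.2 CPM to 170, 386 and 264 CPM (2.90 ± 0.27, adjusted p = 4.8e-05). Lyve1, which marks a resident subset and lymphatic vessels, fell from 377, 391 and 421 CPM to 235, 149 and 253 CPM (-0.90 ± 0.22, adjusted p = 0.00823).

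Genes of alternative macrophage activation rose in 16 of 17 tested cases and none fell, with a median log2 change of 2.37. Retnla, a secreted protein induced through the IL-4 receptor and STAT6, went from 364, 647 and 434 CPM to 6641, 6764 and 5738 CPM (3.73 ± 0.24, adjusted p = 3.22e-06), and Chil3, a chitinase-like protein, from 1030, 1179 and 914 CPM to 8984, 9956 and 7809 CPM (3.10 ± 0.16, adjusted p = 8.17e-07). The CRE libraries differed little from each other for both genes. Pdcd1lg2, the checkpoint ligand PD-L2, went from 0.577 to 0.97 CPM to 13.6 to 39.5 CPM (4.96 ± 0.45, adjusted p = 4.01e-05), and Cd209e, a lectin, from 0.155, 0.462 and 0 CPM to 10.6, 9.82 and 7.47 CPM (5.43 ± 0.51, adjusted p = 5e-05). Mrc1, the mannose receptor, rose from 136 to 141 CPM to 295 to 346 CPM (1.25 ± 0.09, adjusted p = 7.47e-06). Alox15, a lipoxygenase of macrophages and eosinophils, rose from 2.43, 2.45 and 1.59 CPM to 44.9, 53.7 and 41.2 CPM (4.43 ± 0.25, adjusted p = 1.24e-06).

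The promoter of Retnla is shown because the gene rose by a like factor in all 3 CRE libraries and its promoter holds a match to the STAT6 element, TTCNNNNGAA, which reads the same on both strands. The sequence runs from 250 bases before to 50 after the transcription start (RefSeq, GRCm38.p6, chr16:48842359-48842658, plus strand), and capitals mark the match, which begins 145 bases before the start.
Retnla: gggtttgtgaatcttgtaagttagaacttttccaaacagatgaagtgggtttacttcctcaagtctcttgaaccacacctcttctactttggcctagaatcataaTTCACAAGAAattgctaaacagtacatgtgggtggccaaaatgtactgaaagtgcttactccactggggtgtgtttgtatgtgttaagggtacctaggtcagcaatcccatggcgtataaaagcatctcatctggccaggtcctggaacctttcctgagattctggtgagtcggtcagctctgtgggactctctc
Of the genes with a promoter in the RefSeq table, the element was found in at least 1 promoter of 4 of 11 for alternative activation (36.4%), of 1 of 8 for type 2 chemokines (12.5%) and of 1 of 13 for mucus production (7.69%), against 8.01% of all 27025 genes in the table and 6.67% of the tested genes among them. Some genes have several promoters there. A match of letters in this window is a description and does not show that the factor binds there.

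Alveolar macrophage markers did not move as a block. Of 18 tested, 8 rose and 1 fell (median log2 change 0.45; 4 fell without CRE replicate 1), and the summed level went from 1007 to 1112 CPM to 1759 to 2601 CPM. The scavenger receptor Marco was at 46.2, 31.4 and 25.7 CPM with PBS and at 29.3, 5.14 and 8.47 CPM with CRE (-1.27 ± 0.53, adjusted p = 0.0766), and Pparg and Siglecf, which define the cell type, overlapped between the groups (-0.14 ± 0.19 and -0.28 ± 0.16). The 1 that fell was Fabp1, a fatty acid binding protein, from 9.87, 3.70 and 9.71 CPM to 1.92, 1.46 and 0.823 CPM (-2.46 ± 0.39, adjusted p = 0.000843). The largest rises were those of Ctsk, a cysteine protease that other macrophages also make, from 66.6, 55.2 and 39.9 CPM to 226, 448 and 191 CPM (2.42 ± 0.29, adjusted p = 0.000198) and of Itgax, an integrin also of dendritic cells, from 72.1 to 82.8 CPM to 232 to 505 CPM (2.13 ± 0.23, adjusted p = 0.000106).

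Interferon-induced genes rose in every CRE library, with list medians highest in replicate 3 and lowest in replicate 1. Type I interferons act through a transcription factor complex that holds IRF9 on a promoter element with the core GAAANNGAAA. All 26 tested genes of the type I list rose, with no overlap for any of them and a median log2 change of 1.97. The per-library medians of the list were 0.88, 2.04 and 2.54 above the PBS mean in CRE replicates 1, 2 and 3, as log2 of CPM plus 0.5. For these genes, promoters were matched in the RefSeq table for 19 of 26, and 11 of them (57.9%) held the core on either strand, in at least 1 promoter, against 3.99% of all genes in the table. Of the gamma interferon list, 10 of 15 (66.7%) held it. The promoters of 3 members that head the list are shown with the core in capitals, read on the gene's own strand from 250 bases before to 50 after the start (RefSeq, GRCm38.p6). For Isg15 (chr4:156200769-156201068, minus strand) the capitals join 3 overlapping matches that begin 78, 72 and 66 bases before the start. For Ifit1 (chr19:34640639-34640938, plus strand) they mark 2 matches on the opposite strand, at 104 and 85 bases before it, and for Ifit3 (chr19:34583279-34583578, plus strand) 2 at 156 and 122 bases before it.
Isg15: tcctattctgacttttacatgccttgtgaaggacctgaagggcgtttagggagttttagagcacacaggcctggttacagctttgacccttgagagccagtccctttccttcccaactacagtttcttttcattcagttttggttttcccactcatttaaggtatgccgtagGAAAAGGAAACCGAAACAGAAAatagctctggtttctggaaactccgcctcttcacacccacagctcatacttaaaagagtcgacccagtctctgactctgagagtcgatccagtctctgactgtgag
Ifit1: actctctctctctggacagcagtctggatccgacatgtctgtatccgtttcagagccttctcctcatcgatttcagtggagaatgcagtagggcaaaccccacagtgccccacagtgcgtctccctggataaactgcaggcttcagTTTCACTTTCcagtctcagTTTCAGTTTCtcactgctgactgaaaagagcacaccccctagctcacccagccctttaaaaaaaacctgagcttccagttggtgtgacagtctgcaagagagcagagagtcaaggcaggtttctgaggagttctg
Ifit3: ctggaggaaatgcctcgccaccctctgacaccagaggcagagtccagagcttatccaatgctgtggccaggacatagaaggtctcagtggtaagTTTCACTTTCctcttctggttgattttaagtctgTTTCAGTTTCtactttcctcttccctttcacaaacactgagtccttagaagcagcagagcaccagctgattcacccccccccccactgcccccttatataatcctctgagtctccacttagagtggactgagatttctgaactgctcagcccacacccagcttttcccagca

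Isg15, a ubiquitin-like modifier, went from 16.1, 12.9 and 10.1 CPM to 43.9, 139 and 178 CPM (log2 change 3.21 ± 0.42, adjusted p = 0.000264). Ifit1, which binds foreign RNA, went from 32.6, 42.9 and 24.9 CPM to 65.2, 142 and 242 CPM (2.16 ± 0.37, adjusted p = 0.00128). Ifit3 went from 71.3, 52.5 and 52.9 CPM to 121, 272 and 506 CPM (2.35 ± 0.39, adjusted p = 0.00109). In each, every CRE library was above every PBS library, and the CRE libraries spanned a wider range than the PBS libraries. Zbp1, a sensor of nucleic acids, went from 7.40 to 9.61 CPM to 26.9, 88.1 and 94.0 CPM (3.00 ± 0.37, adjusted p = 0.00022), and Irf7, the factor that amplifies interferon production and whose locus overlaps Phrf1, from 20.7 to 33.8 CPM to 69.0, 218 and 382 CPM (2.94 ± 0.47, adjusted p = 0.000859).

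Of the 21 tested genes of the gamma interferon list, 17 rose and none fell (median log2 change 1.33). Cxcl9, a CXCR3 ligand, was at 1.14, 4.02 and 3.89 CPM with PBS and at 5.17, 21.5 and 44.9 CPM with CRE (2.97 ± 0.74, adjusted p = 0.00877). Iigp1, a GTPase of the immunity-related family, went from 46.2, 43.4 and 40.6 CPM to 86.5, 140 and 258 CPM (1.90 ± 0.30, adjusted p = 0.000776). Irf1 did not pass the test, at 118 to 139 CPM with PBS and 110 to 164 CPM with CRE (0.14 ± 0.13, adjusted p = 0.441). Among ligands and receptors, 6 of 11 tested genes rose and 2 fell, and 3 rose without PBS replicate 3. Ifng itself was near the limit of counting, at 0.155, 0.323 and 0.048 CPM with PBS and at 0.601, 1.05 and 0.882 CPM with CRE (2.21 ± 0.60, adjusted p = 0.013), and it no longer passed when PBS replicate 3 was left out (adjusted p = 0.0534). Ifngr2, a chain of its receptor, rose from 62.9 to 71.9 CPM to 109 to 161 CPM (0.94 ± 0.13, adjusted p = 0.000344), and Ifngr1, the other chain, fell from 175 to 207 CPM to 134 to 156 CPM (-0.39 ± 0.09, adjusted p = 0.00533). Il18, a cytokine that induces gamma interferon, fell from 25.1, 20.7 and 25.1 CPM to 16.5, 9.82 and 13.5 CPM (-0.83 ± 0.20, adjusted p = 0.00811).

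In Cc10-Cre lungs 12 of the 26 type I genes rose with CRE, with a median log2 change of 0.66, where 28.6% of all tested genes rose. In the edgeR test of the difference between the genotypes, the unadjusted p was below 0.05 for 20 of the 26 genes, against 1801 of all 17473 tested genes. The adjusted p of that test was below 0.05 for 0 of the 26 (0.0458% of all tested genes passed). Over all genes, DESeq2 called 128 differences, against 8 by edgeR. With quality weights, under which libraries do not count equally, limma-voom called 4371. For Ifit3 the difference of the log2 changes was 1.97 ± 0.54 (unadjusted p = 0.00313, adjusted p = 0.337), and for Isg15 it was 1.55 ± 0.56 (unadjusted p = 0.017, adjusted p = 0.414).

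**Figure D4:**
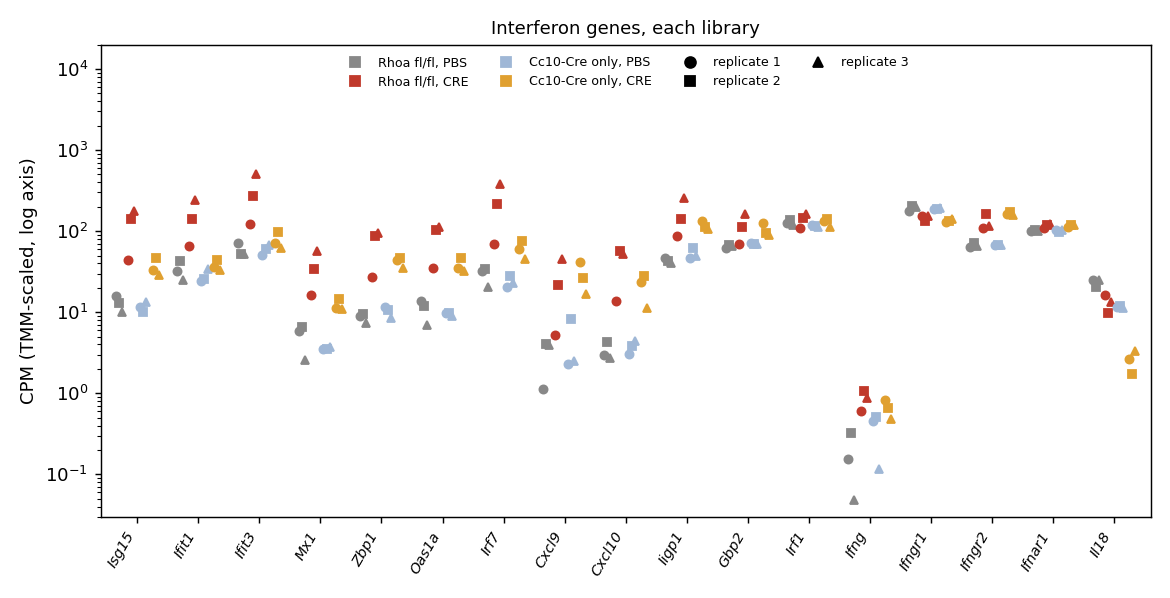
Each point is 1 library, with CPM on a log axis, for interferon-induced genes and, at the right, interferon ligands and receptors; grey and red mark PBS and CRE libraries of Cc10-Cre;Rhoa fl/fl mice, light blue and orange those of Cc10-Cre mice. For Ifit3 the red points lie at 121, 272 and 506 CPM above all grey points, and for Irf1 they overlap the grey points.

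Genes of antigen presentation by MHC class II rose in 10 of 12 tested cases and none fell (median log2 change 1.31). H2-Ab1, a beta chain, went from 359, 574 and 356 CPM to 834, 1610 and 1468 CPM (1.60 ± 0.24, adjusted p = 0.000571). Ctss, the protease that trims the invariant chain, went from 244, 284 and 220 CPM to 771, 2394 and 1380 CPM (2.60 ± 0.31, adjusted p = 0.000174). CRE replicate 1 was the lowest CRE library for both.

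B and plasma cell genes rose in 14 of 23 tested cases and none fell (median log2 change 2.26), but the list was near its PBS level in CRE replicate 1. The per-library medians were 0.36, 2.27 and 1.85 in CRE replicates 1, 2 and 3, and the summed level was 719 to 1087 CPM with PBS and 1289, 5260 and 4291 CPM with CRE. Ighg1, the constant region of IgG1, went from 0.982, 1.76 and 0.865 CPM to 18.1, 597 and 432 CPM (8.17 ± 1.11, adjusted p = 0.000345). Jchain, which joins secreted IgA and IgM, went from 21.6, 80.0 and 37.0 CPM to 87.5, 380 and 332 CPM (2.53 ± 0.53, adjusted p = 0.00346). Both were several times lower in CRE replicate 1 than in the other CRE libraries. Ighe, the constant region of IgE, was at 0.12, 12.6 and 3.88 CPM with CRE against 1 count over the PBS libraries, a ratio of 346 with a 95% counting interval of 61.6 to 1.37e+04. That interval pools the libraries and leaves out the spread between them, and the call of Ighe was lost with limma-voom and quality weights. The B cell surface gene Ms4a1 overlapped between the groups (0.77 ± 0.35, adjusted p = 0.0972), and CRE replicate 1 lay within the PBS range. Cxcl13, the chemokine that gathers B cells, rose in every CRE library, from 1.81, 2.68 and 4.61 CPM to 17.96, 86.1 and 38.7 CPM (3.96 ± 0.51, adjusted p = 0.000261).

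Among T cell genes 6 of 17 rose and 1 fell (0 without PBS replicate 1 or 2 or CRE replicate 1; median log2 change 0.62), and 10 rose without CRE replicate 1 and 3 without any 1 of PBS replicates 1 and 3 and CRE replicates 2 and 3. Those that rose included Ctla4, an inhibitory receptor, from 1.34, 4.43 and 1.11 CPM to 6.55, 10.6 and 13.6 CPM (2.15 ± 0.49, adjusted p = 0.00544), and Il2ra, the IL-2 receptor alpha chain, from 3.41, 6.84 and 3.99 CPM to 9.67, 14.9 and 13.99 CPM (1.43 ± 0.25, adjusted p = 0.00126). Neither overlapped between the groups. Cd3e and Cd8a, which define T cells and their cytotoxic subset, did overlap (0.62 ± 0.33, adjusted p = 0.152, and 0.39 ± 0.40, adjusted p = 0.467). Of 12 tested genes of NK and cytotoxic lymphocytes, 1 rose and none fell (4 rose without CRE replicate 1, none without PBS replicate 1 or 3 or CRE replicate 2 or 3, and 1 fell without PBS replicate 2), and Gzma, a granzyme, was at 17.3, 11.4 and 13.4 CPM with PBS and at 6.43, 13.7 and 13.6 CPM with CRE (-0.31 ± 0.37, adjusted p = 0.531). Dendritic cell genes rose in 7 of 14 cases and fell in 1 (median 0.56). Fscn1, the actin bundler of mature dendritic cells, rose from 33.9 to 42.2 CPM to 58.9 to 123 CPM (1.25 ± 0.21, adjusted p = 0.00106), while the subset markers Xcr1 and Cd209a overlapped between the groups (0.39 ± 0.27, adjusted p = 0.271, and 0.06 ± 0.26, adjusted p = 0.867). Il10, an anti-inflammatory cytokine, had 1 count over the PBS libraries and 87 over the CRE libraries, a ratio of 106 with a 95% counting interval of 18.5 to 4231.

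Neutrophil chemokines rose, but most neutrophil markers did not pass the test. Of 10 tested chemokines and related cytokines, 7 rose and none fell (median log2 change 2.21). Cxcl5, made by alveolar epithelium, went from 0.568, 0.785 and 0.913 CPM to 28.3, 39.6 and 7.94 CPM (5.04 ± 0.55, adjusted p = 0.000108), and Cxcl3 from 0.413, 2.31 and 0.577 CPM to 30.5, 55.6 and 32.8 CPM (5.14 ± 0.52, adjusted p = 7.95e-05). For both, the groups did not overlap. Of 12 tested neutrophil markers, 3 rose and none fell, the median log2 change was -0.00, and the summed level was 127 to 455 CPM with PBS and 228 to 573 CPM with CRE. S100a8, a calprotectin subunit, was at 39.3, 62.8 and 13.8 CPM with PBS and at 29.6, 51.9 and 12.2 CPM with CRE (-0.31 ± 0.51, adjusted p = 0.66), and Cxcr2, the receptor of these chemokines, at 13.5, 30.6 and 7.59 CPM and at 17.1, 31.2 and 6.17 CPM (0.07 ± 0.53, adjusted p = 0.922). In both treatments replicate 3 was lowest and replicate 2 highest for these genes. The 3 that rose were Retnlg (2.34 ± 0.42, adjusted p = 0.00149), Cebpe, a factor of granulocyte maturation (4.93 ± 0.56, adjusted p = 0.000143), and Ltf, lactoferrin (1.35 ± 0.40, adjusted p = 0.0189), which airway glands also make and whose call was lost without PBS replicate 1 or CRE replicate 2 (adjusted p up to 0.0617). In Cc10-Cre lungs 10 of the 12 rose (median 1.88), where 28.6% of all tested genes rose, against 20.6% in Cc10-Cre;Rhoa fl/fl lungs. In the edgeR test of the difference between the genotypes, the unadjusted p was below 0.05 for 7 of the 12, against 1801 of all 17473 tested genes. The adjusted p of that test was below 0.05 for 0 of the 12. For S100a8 the difference was -2.06 ± 0.73 (unadjusted p = 0.016, adjusted p = 0.412).

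Of 8 tested eosinophil genes, 3 rose and 1 fell (median log2 change 1.48). Prg2, the major basic protein, went from 0.103, 0.508 and 0.192 CPM to 6.19, 25.2 and 6.70 CPM (5.50 ± 0.68, adjusted p = 0.000215), which with Ccr3 and Alox15, given above, makes up the 3. Ear1, a ribonuclease whose reads overlap a pseudogene, fell from 15.9 to 19.7 CPM to 3.27 to 6.35 CPM (-1.85 ± 0.31, adjusted p = 0.00118). Mast cell and basophil genes rose in 4 of 10 cases and fell in 1 (2 without PBS replicate 2), and 2 rose without any 1 of PBS replicates 1 and 3 and CRE replicates 2 and 3. Mcpt2, among the 10, had 0 counts over the PBS libraries and 30 over the CRE libraries. Cpa3 and Cma1, which mark mast cells, overlapped between the groups (-0.66 ± 0.29, adjusted p = 0.0886, and -0.31 ± 0.38, adjusted p = 0.545), and the gene that fell, Gata2, is also made by endothelium (-1.17 ± 0.22, adjusted p = 0.00196).

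Matrix genes rose in 15 of 24 tested cases and none fell (1 without CRE replicate 3; median log2 change 0.70), while fibroblast markers fell. Timp1, an inhibitor of matrix proteases, was at 7.34, 13.5 and 13.8 CPM with PBS and at 85.1, 364 and 89.1 CPM with CRE (3.95 ± 0.56, adjusted p = 0.000439). Mmp12, the macrophage elastase, whose locus overlaps Mmp1b, was at 11.9, 16.9 and 6.92 CPM with PBS and at 216, 1715 and 293 CPM with CRE (5.96 ± 0.75, adjusted p = 0.000228). CRE replicate 2 was several times higher than the other CRE libraries for both. Col1a1, the main fibrillar collagen, rose evenly, from 606, 702 and 766 CPM to 1377, 1286 and 1211 CPM (0.90 ± 0.11, adjusted p = 0.000218). Tnc, tenascin C, rose from 31.0 to 43.2 CPM to 88.5 to 209 CPM (2.04 ± 0.26, adjusted p = 0.000254), with an overlapping antisense gene. Of 12 tested fibroblast markers, 8 fell and 1 rose (0 without PBS replicate 3; median -0.80), and the summed level went from 4028 to 4540 CPM to 1090 to 2420 CPM. Npnt, nephronectin, fell from 1370, 1172 and 1423 CPM to 718, 238 and 655 CPM (-1.30 ± 0.30, adjusted p = 0.00581), and Inmt, a methyltransferase, from 1529, 1650 and 1800 CPM to 672, 213 and 485 CPM (-1.86 ± 0.30, adjusted p = 0.000878).

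Endothelial markers fell in 10 of 19 cases and rose in 2 (1 without PBS replicate 1, PBS replicate 3 or CRE replicate 3; median log2 change -0.45), with a summed level of 5893 to 6993 CPM with PBS and 3683 to 5771 CPM with CRE. Ednrb, the endothelin B receptor, fell from 134, 133 and 135 CPM to 64.2, 24.95 and 65.1 CPM (-1.38 ± 0.26, adjusted p = 0.00204), and Apln, apelin, from 71.9 to 99.9 CPM to 25.7 to 49.1 CPM (-1.11 ± 0.20, adjusted p = 0.00145). Selp, P-selectin, which captures leukocytes and whose locus overlaps predicted genes, rose from 3.57, 4.20 and 3.99 CPM to 11.4, 17.5 and 13.5 CPM (1.84 ± 0.19, adjusted p = 7.95e-05). In smooth muscle and pericytes 3 of 12 genes rose and none fell, with Acta2, smooth muscle actin, at 155, 242 and 205 CPM with PBS and 350, 328 and 310 CPM with CRE (0.71 ± 0.14, adjusted p = 0.0022), and Myh11, its myosin, overlapping between the groups (0.31 ± 0.17, adjusted p = 0.172). Cardiac muscle markers, which lie in the pulmonary veins and in any heart tissue taken along, fell in 7 of 12 cases (4 without PBS replicate 3) and summed to 446 to 673 CPM with PBS and 235 to 441 CPM with CRE. Their part in the other results was not tested. Markers of red blood cells were not called in any of 6 cases, and 2 of 6 mesothelial and 1 of 6 lymphatic markers fell, while 1 lymphatic marker rose. Without PBS replicate 3, 1 mesothelial marker fell. The lymphatic rise was lost without PBS replicate 2 or 3 or CRE replicate 2, and 2 lymphatic markers fell without PBS replicate 2 or CRE replicate 1. Without PBS replicate 2, 1 red blood cell marker rose, and 1 smooth muscle or pericyte gene fell without that library or without CRE replicate 1.

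The genes of RhoA signalling did not move in 1 direction: 9 of 27 tested rose and 8 fell, with a median log2 change of -0.02, and 2 fell without PBS replicate 3 and 4 or 5 without most other single libraries. The kinase Rock2 fell from 306, 359 and 336 CPM to 209, 137 and 177 CPM (-0.94 ± 0.14, adjusted p = 0.000648), and Rock1 fell by less (-0.32 ± 0.11, adjusted p = 0.0383), a call lost without PBS replicate 2, PBS replicate 3 or CRE replicate 2, or 4 of the Cc10-Cre libraries (adjusted p up to 0.111). Some of those that rose act in cell division. Ect2, the exchange factor that activates RhoA at the cleavage furrow, rose from 9.15, 8.82 and 7.78 CPM to 24.2, 30.3 and 22.3 CPM (1.58 ± 0.16, adjusted p = 9.36e-05), and Anln, anillin of the contractile ring, from 15.5, 14.04 and 12.9 CPM to 31.8, 43.7 and 27.8 CPM (1.28 ± 0.17, adjusted p = 0.00031). All 20 tested cell cycle genes rose with them (median 2.12), without overlap between the groups. Cdk1, the mitotic kinase, went from 6.20, 7.85 and 5.00 CPM to 23.7, 63.8 and 25.8 CPM (2.57 ± 0.37, adjusted p = 0.000461), and Birc5, survivin, from 5.22, 5.17 and 4.32 CPM to 17.7, 43.1 and 22.2 CPM (2.50 ± 0.30, adjusted p = 0.000189). CRE replicate 2 was the highest library for both.

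Genes of protein folding in the secretory pathway rose in 9 of 15 cases and fell in 1 (median log2 change 0.64). Sdf2l1, a chaperone cofactor, rose from 23.3, 37.5 and 26.1 CPM to 103, 113 and 85.7 CPM (1.80 ± 0.18, adjusted p = 6.87e-05), while Herpud1, of the same stress response, fell from 176, 284 and 245 CPM to 121, 116 and 125 CPM (-0.96 ± 0.15, adjusted p = 0.000833), and Ddit3, the factor CHOP, did not pass the test (-0.14 ± 0.12, adjusted p = 0.38). Targets of NRF2 and glutathione genes split, with 5 of 14 higher (3 without PBS replicate 3) and 6 lower. Slc7a11, the cystine transporter, rose from 3.00, 4.76 and 4.32 CPM to 15.98, 50.7 and 17.8 CPM (2.80 ± 0.39, adjusted p = 0.000402), and Hmox1, haem oxygenase, from 29.3 to 44.0 CPM to 64.2 to 155 CPM (1.44 ± 0.27, adjusted p = 0.00184). Nqo1, a quinone reductase, fell from 7.78 to 7.85 CPM to 2.86 to 3.47 CPM (-1.33 ± 0.17, adjusted p = 0.000254), and Cat, catalase, from 294 to 331 CPM to 115 to 179 CPM (-1.04 ± 0.14, adjusted p = 0.000367). Complement genes rose in 9 of 15 cases with none falling, led in level by C3, from 882, 956 and 990 CPM to 4484, 3893 and 4140 CPM (2.15 ± 0.13, adjusted p = 2.49e-06). Of 13 genes of eicosanoid synthesis, 9 rose and none fell (1 without PBS replicate 2). Ptges, which makes prostaglandin E, rose from 30.2 to 37.7 CPM to 61.4 to 98.3 CPM (1.18 ± 0.17, adjusted p = 0.000407), while Alox5, which starts leukotriene synthesis, and Ptgs2, the inducible cyclooxygenase, did not pass the test (0.25 ± 0.16, adjusted p = 0.233, and -0.08 ± 0.27, adjusted p = 0.832). Immediate early and heat shock genes, which respond to tissue handling, rose in 3 of 12 cases and fell in 6, with 0 rising without PBS replicate 3, 1 without PBS replicate 1 or CRE replicate 2 and 3 falling without PBS replicate 2 or CRE replicate 2, and their summed level was 747, 1786 and 1071 CPM with PBS and 728, 1014 and 874 CPM with CRE, so that PBS replicate 2 was the highest. The part of handling in other results was not tested.

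The contrast of the 2 genotypes asks where the response differed with the floxed Rhoa alleles, and it called 8 of 17473 genes (0.0458%), 6 with a higher log2 change in Cc10-Cre;Rhoa fl/fl lungs (0.0343%) and 2 with a lower one (0.0114%). In Cc10-Cre lungs 9959 genes were called (57.0%), of which 5003 rose (28.6%) and 4956 fell (28.4%). Of the 3595 genes that rose in Cc10-Cre;Rhoa fl/fl lungs, 3220 also rose in Cc10-Cre lungs, 368 were not called there and 7 fell; of the 3235 that fell, 2922 fell, 312 were not called and 1 rose. The genotypes were not compared by these counts, since a call in 1 and not in the other is no test of a difference. At an unadjusted p below 0.05 the test of the difference listed 1801 genes, and the 8 called genes were chosen by that test. With sex as a covariate 2 of the 8, Rbpj and Mcemp1, passed (adjusted p of the 8 from 0.0407 to 0.0983), and with the replicate number as a block 0 of the 8 passed (adjusted p from 0.0598 to 0.121).

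Rbpj, the DNA-binding factor of the Notch pathway (ENSMUSG00000039191, GRCm38 chr5:53466152-53657362, plus strand, with a processed copy, Rbpj-ps3), fell in 1 genotype and rose in the other. It was at 76.4, 69.3 and 57.9 CPM with PBS and at 42.7, 41.4 and 47.2 CPM with CRE in Cc10-Cre;Rhoa fl/fl lungs, against 88.1, 91.3 and 89.4 CPM and 136, 128 and 140 CPM in Cc10-Cre lungs. The log2 changes were -0.63 ± 0.10 and 0.59 ± 0.10, and the difference was -1.22 ± 0.14 (adjusted p = 0.0244). Tdo2, tryptophan dioxygenase (ENSMUSG00000028011, chr3:81957090-81976202, minus strand), rose in both but less in Cc10-Cre;Rhoa fl/fl lungs. It went from 2.58, 2.22 and 2.64 CPM to 5.65, 7.71 and 4.82 CPM there and from 1.92, 1.66 and 2.95 CPM to 29.4, 27.1 and 23.7 CPM in Cc10-Cre lungs, a difference of -2.34 ± 0.32 (adjusted p = 0.0458, the value of all 7 called genes other than Rbpj).

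The other 6 had the higher log2 change in Cc10-Cre;Rhoa fl/fl lungs. In 4 of these the response had opposite signs, up in Cc10-Cre;Rhoa fl/fl and down in Cc10-Cre lungs. Mcemp1, a membrane protein of mast cells and myeloid cells (ENSMUSG00000013974, chr8:3665754-3669259, plus strand), went from 24.4, 24.7 and 22.3 CPM to 36.4, 44.1 and 38.7 CPM, and in Cc10-Cre lungs from 21.9, 23.7 and 23.98 CPM to 11.4, 17.8 and 13.4 CPM, a difference of 1.45 ± 0.20. Plet1, an epithelial surface protein also of the alveolar macrophage list, whose locus overlaps Plet1os (ENSMUSG00000032068, chr9:50494525-50505482, plus strand), went from 44.0, 47.3 and 46.8 CPM to 89.3, 59.0 and 69.7 CPM, and in Cc10-Cre lungs from 50.4, 55.2 and 48.9 CPM to 27.4, 31.7 and 36.2 CPM, a difference of 1.35 ± 0.20. Klra2, a lectin-like receptor (ENSMUSG00000030187, chr6:131219223-131247362, minus strand), went from 9.97, 9.51 and 9.56 CPM to 13.6, 18.6 and 14.8 CPM, and in Cc10-Cre lungs from 10.004, 9.52 and 9.96 CPM to 5.80, 6.61 and 5.19 CPM, a difference of 1.44 ± 0.20. Axl, a receptor for apoptotic cells on macrophages (ENSMUSG00000002602, chr7:25757273-25788705, minus strand), went from 229, 226 and 219 CPM to 283, 304 and 322 CPM, and in Cc10-Cre lungs from 219, 238 and 212 CPM to 158, 161 and 184 CPM, a difference of 0.84 ± 0.13. The CRE libraries of the genotypes did not overlap in any of these 4 genes, and the PBS libraries overlapped in all but Plet1. The genes were chosen by the test on these same libraries, so this separation adds no support.

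The remaining pair fell further in Cc10-Cre lungs. Fpr1, the formyl peptide receptor of neutrophils and monocytes (ENSMUSG00000045551, chr17:17876471-17883940, minus strand), went from 16.9, 16.7 and 13.4 CPM to 12.2, 5.84 and 8.17 CPM in Cc10-Cre;Rhoa fl/fl lungs (-0.84 ± 0.28, adjusted p = 0.0315, lost without PBS replicate 1 or 2 or CRE replicate 2 or 3) and from 15.7, 16.7 and 18.1 CPM to 0.568, 1.80 and 1.12 CPM in Cc10-Cre lungs, a difference of 2.99 ± 0.43. Slc16a11, a monocarboxylate transporter (ENSMUSG00000040938, chr11:70212752-70216417, plus strand), went from 22.6, 18.6 and 15.2 CPM to 16.5, 12.2 and 15.4 CPM (-0.36 ± 0.16, adjusted p = 0.102), against 30.1, 35.2 and 29.996 CPM and 9.40, 7.60 and 7.65 CPM, a difference of 1.60 ± 0.23.

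**Figure D5:**
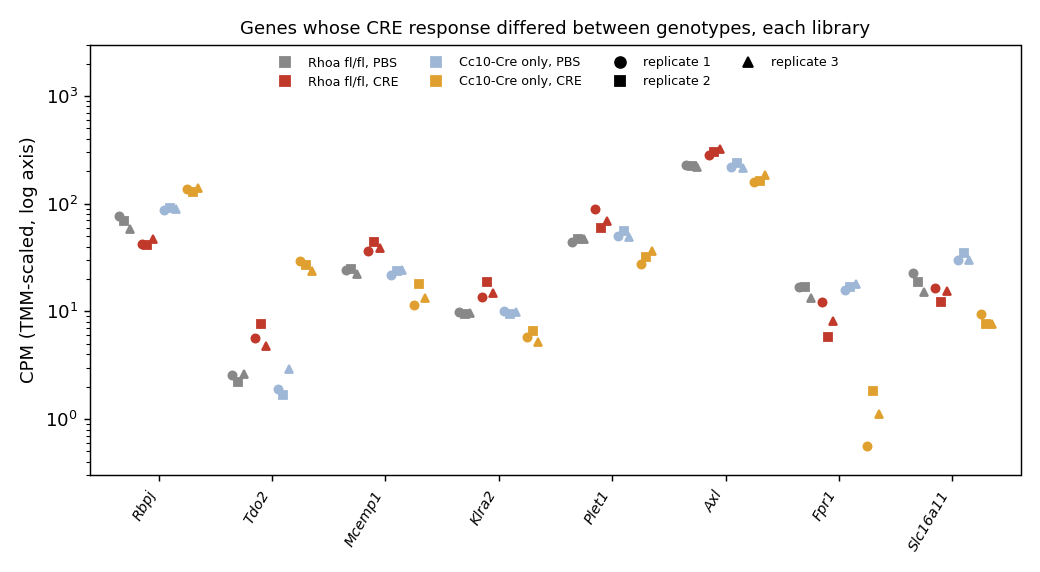
Each point is 1 library, with CPM on a log axis, for the 8 genes called in the test of the difference between genotypes; grey and red mark PBS and CRE libraries of Cc10-Cre;Rhoa fl/fl mice, light blue and orange those of Cc10-Cre mice. For Rbpj the red points lie at 41.4 to 47.2 CPM and the orange ones at 128 to 140 CPM.

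How many genes the test of the difference called depended on CRE replicate 2 of the Cc10-Cre;Rhoa fl/fl mice, the library that lay among the CRE libraries of Cc10-Cre mice. Leaving out a library singled out by its closeness to the other genotype in these same data favours a larger difference. The counts without CRE replicate 2 are therefore no independent support for one. Without that library, 2660 of 17931 genes were called (14.8%), 1564 with a higher and 1096 with a lower log2 change in Cc10-Cre;Rhoa fl/fl lungs. In the same test 24 were called without CRE replicate 1, and 0 to 4 when any other single library of the 12 was left out. All 8 genes given above passed without CRE replicate 1 or 2, 0 of the 8 without CRE replicate 3 or PBS replicate 1 or 2, and 1 of the 8, Rbpj, without PBS replicate 3 (edgeR adjusted p up to 0.199 over these). Of the Cc10-Cre libraries, leaving out CRE replicate 2 kept 3 of the 8, PBS replicate 3 kept 1, and any other kept 0. For the gene lists, the count without CRE replicate 2 was added after the data had been seen, as was the choice to give the 9 lists with at least 50% of their tested members called. Of these, 13 of 16 type 1 alveolar genes, 12 of 16 airway enzymes, 13 of 20 ciliated cell genes and 11 of 20 club cell genes had a higher log2 change in Cc10-Cre;Rhoa fl/fl lungs and none a lower one. Lower log2 changes were called for 10 of 17 genes of alternative activation, 11 of 20 cell cycle genes and 6 of 12 neutrophil markers, and higher ones for none of them. Alveolar macrophage genes went both ways, with 7 of 18 higher and 4 lower, as did eosinophil genes, with 1 of 8 higher and 3 lower. The other 34 lists had 0% to 46.7% of their members called, among them 8 higher and 3 lower of 28 junction genes, 2 higher and 5 lower of 20 interstitial macrophage genes and 8 higher and 0 lower of 26 type I interferon genes. With all libraries, 1 alveolar macrophage gene, Plet1, was called and no other member of the 9 lists.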

How the data were processed

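RNA of whole lung was sequenced in 12 libraries, 3 in each of 4 groups set by genotype (Cc10-Cre or Cc10-Cre;Rhoa fl/fl) and treatment (PBS or CRE), all with the same batch number in the labels. The authors deposited 1 table of whole-number read counts per gene, not normalized. The tools fastp and STAR and the mouse build mm10 are named in the submitters' processing notes, while the sources used here do not give the counting tool, its annotation or its use of strand. Of the 54532 gene IDs, 54495 were matched to symbols of GENCODE M21 on GRCm38, and the table held 0 sample columns outside the series. Without strand, reads of overlapping genes cannot be told apart, and near-identical copies (found with blastn 2.17.0 at 98% identity over at least 200 bases) are named where a described gene has one.

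Genes with low counts were removed with filterByExpr, which left 17473. The deposited counts were fitted with edgeR 4.0.16 (R 4.3.3; TMM scaling, quasi-likelihood test) with 1 mean per group over all 12 libraries. The contrasts were CRE against PBS in Cc10-Cre;Rhoa fl/fl mice, the same in Cc10-Cre mice, and the difference of the 2, each adjusted over all tested genes and called at an adjusted p below 0.05. CPM are TMM-scaled, and standard errors were taken from the log2 change and its F value. The biological coefficient of variation was 17.4%. Intervals and floors cover counting error only. The scripts were tested on simulated data.

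Gene lists (43, with 613 of 641 members tested) are described by counts and medians, without a test. The members and lists were chosen with earlier results of these data known. Genes were named by rule: the first 4 tested members of each list, up to 4 called members with the largest rise and fall in each, the 20 largest rises and falls among called genes with at least 1 CPM and no overlap, and the genes called in the test of the difference; some genes that this rule names are not reported here. Promoters came from the RefSeq table of GRCm38.p6. Alternatives were other size factors, no filter, a replicate block, sex as a covariate and only the 6 libraries of Cc10-Cre;Rhoa fl/fl mice. Further ones were limma-voom with quality weights for libraries (limma 3.58.1), DESeq2 1.42.0, calls of at least 2-fold and leaving out each library.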

Additional observations from a re-analysis of the deposited data

Results flagged for a closer look

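The CRE response differed between the genotypes by the edgeR test of the difference in 8 genes, and the differences of the log2 changes (Cc10-Cre;Rhoa fl/fl minus Cc10-Cre) were -1.22 for Rbpj, -2.34 for Tdo2, 1.45 for Mcemp1, 1.44 for Klra2, 2.99 for Fpr1, 1.60 for Slc16a11, 1.35 for Plet1 and 0.84 for Axl. Cx3cr1 is a chemokine receptor of monocytes and macrophages whose locus overlaps Gm33858. A search of only the genes named in the text flagged it for its opposite order of libraries. The CRE libraries were all above the PBS libraries in Cc10-Cre;Rhoa fl/fl lungs and all below in Cc10-Cre lungs. Cx3cr1 went from 20.5, 12.8 and 16.96 CPM to 30.2, 27.5 and 36.2 CPM in Cc10-Cre;Rhoa fl/fl lungs (log2 change 0.90 ± 0.19, adjusted p = 0.00331) and from 16.9, 19.7 and 17.9 CPM to 10.3, 14.4 and 15.5 CPM in Cc10-Cre lungs (-0.44 ± 0.19, adjusted p = 0.0662). Its difference of 1.34 did not pass the edgeR test over all genes (adjusted p = 0.155).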

How the results depend on the processing

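In Cc10-Cre;Rhoa fl/fl lungs 6830 genes were called. A separate fit of only the 6 libraries of these mice called 3812, 2105 of the 6830 changed at least 2-fold, and leaving out each library in turn gave 4767 to 7778. The other settings gave 5798 (sex as a covariate) to 8012 (limma-voom with quality weights). For the test of the difference between genotypes, 8 genes were called, against 81 with no filter on low counts and 128 with DESeq2. Limma-voom with quality weights called 4371, a fit with sex as a covariate 2, and leaving out each library in turn 0 to 2660. With the replicate number as a block (replicate block), 6999 genes were called in Cc10-Cre;Rhoa fl/fl lungs and 0 in the test of the difference. Deviations of same-numbered PBS and CRE libraries from their group means correlated at 0.113, 0.157 and -0.0232. Those of differently numbered libraries correlated at -0.247 to 0.176, a range that holds these values, so the numbers were not taken to pair the libraries. The cause of these moves was not tested. Over 164 genes named in the text, 98 of 3275 values lost the call, 21 gained it and none changed direction when called; 268 of 2580 counts over lists moved by more than 1.5 times. Precision is limited by 3 libraries a group and, for genes near 0 counts with PBS, by counting.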
